A study of Mus musculus with 11 samples.

Results

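Full-length CTCF was put back into auxin-treated mouse embryonic stem cells, and their RNA was compared here with that of cells that received no auxin. The comparison takes the 3 FL auxin libraries and the 3 EV untreated libraries, 6 of the 11 libraries analysed, as the labels of genotype and treatment name them, and covers every gene with enough counts to be tested. All libraries came from the CTCF-AID embryonic stem cell line EN52.9.1, in which CTCF carries an auxin-inducible degron. The EV untreated group received no auxin and has the genotype label wild-type, meaning within this degron line. The FL auxin group received 500 µM of the auxin indole-3-acetic acid and had FL CTCF reintroduced. The 2 EV auxin libraries, treated with 500 µM auxin and labelled as depleted of endogenous CTCF, are given beside the results for reference. Below, auxin alone refers to these libraries, in which auxin and the depletion of endogenous CTCF come together. A further EV auxin replicate is not analysed here. The remaining 3 libraries are auxin-treated cells with H373R CTCF. The labels do not say what EV stands for, how FL CTCF was delivered, at what protein level, for how long auxin was given, or whether the replicates were separate cultures, so the p-values may measure only technical spread. The compared groups differ in both auxin and the reintroduced protein, and these cannot be told apart here, since no auxin-treated line without the degron was analysed.

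CTCF is a zinc finger protein that binds DNA at a long, partly conserved motif, stops the cohesin ring as it extrudes chromatin loops, and so sets the borders of chromosome domains; at some promoters it also acts directly. Embryonic stem cells grown in serum with LIF are a mixed population in which FGF signalling favours a primitive endoderm programme led by GATA factors, and NANOG restrains it. Primitive endoderm gives rise to visceral and parietal endoderm, which take up nutrients and lay down basement membrane.

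The total count was 21005545 to 29902246 in the EV untreated and 13465241 to 21037863 in the FL auxin libraries. Pearson's r across genes on log2 CPM (counts scaled by library size) was 0.993 to 0.996 within the groups and 0.983 to 0.987 between them. EV untreated replicate 1 stood apart from the other 2 of its group, with a chi-square per degree of freedom of 14.5 and 13.6 against them, where replicates 2 and 3 gave 1.88 and the FL auxin pairs 2.78 to 4.69. Its deviation from the group mean followed the GC content of the genes (r = 0.559 across genes, which are not independent replicates). Counts are therefore given with and without it. Stem cell markers were high in both groups: Pou5f1 was at 1679 to 1703 TPM (reads scaled by gene length and library size) in EV untreated and 1632 to 1764 TPM in FL auxin libraries, and Sox2 at 1043 to 1087 TPM and 968 to 1012 TPM.

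Ctcf transcripts did not separate the groups. Ctcf had 294, 344 and 339 CPM in the EV untreated, 364 and 359 CPM in the EV auxin and 328, 333 and 349.6 CPM in the FL auxin libraries. The ranges of EV untreated and FL auxin overlapped, and the difference on the log2 scale was 0.05 ± 0.058 (SE), at an edgeR adjusted p = 0.531. The degron acts on the protein, and whether reads of the reintroduced sequence were counted as Ctcf is not given in the sources used here, so these counts check neither the depletion nor the rescue.

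Many transcripts differed despite the reintroduced CTCF, most of them slightly. Of 16420 genes tested, 6052 had an adjusted p under 0.05 by the quasi-likelihood test of edgeR, adjusted by Benjamini-Hochberg over all tested genes; 36.9% of all tested genes were thus called, 17.7% (2899) higher and 19.2% (3153) lower in FL auxin cells. Of the called genes 4271 (70.6%) changed less than 1.5-fold, 664 at least 2-fold (307 higher and 357 lower) and 69 at least 4-fold (34 higher and 35 lower). The median log2 fold change over all tested genes was 0.0016. In 5563 of the called genes the 3 FL auxin libraries all lay above or all below the 3 EV untreated libraries, as did 43.4% of all tested genes. Without EV untreated replicate 1, 7706 genes were called (3820 higher and 3886 lower), of which 5665 were among the 6052. On the log2(TPM + 1) scale with no filter on low values limma called fewer higher genes, 1827 against 3122 lower.

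**Figure D1:**
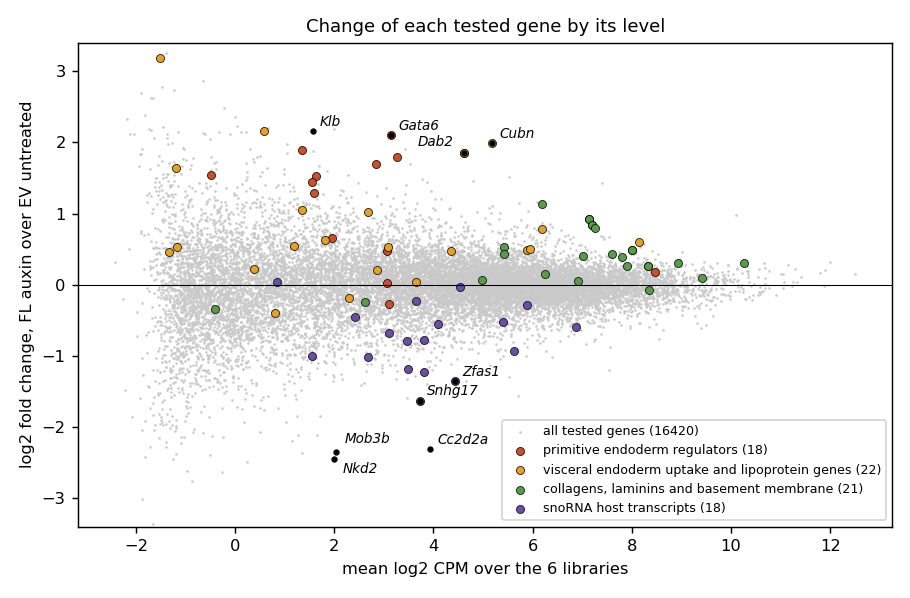
Log2 fold change of FL auxin over EV untreated (vertical axis) against the mean log2 CPM of the 6 libraries (horizontal axis), 1 point per tested gene. Grey points are all 16420 tested genes, coloured points the members of 4 gene lists, and black points the genes named on the plot. Most primitive endoderm members lie above 0 and most snoRNA host transcripts below it.

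Transcripts of the extraembryonic endoderm rose together. Of 18 primitive endoderm regulators tested, 16 were higher and 1 lower in FL auxin cells, with a median log2 fold change of 1.11 (16 and 0, median 1.19, without EV untreated replicate 1). The share of all genes called higher was 17.7%. Of 22 visceral endoderm uptake and lipoprotein genes 15 were higher and 0 lower (median 0.54), and of 21 collagens, laminins and other basement membrane genes 14 were higher and 0 lower (median 0.31); without EV untreated replicate 1 these were 15 and 0, and 16 and 0. The 3 lists share members: together they hold 56 tested genes, of which 40 were higher and 1 lower. In bulk RNA, more cells of a type and more RNA per cell cannot be told apart.

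Gata6, a zinc finger factor that starts the primitive endoderm programme, rose 4.28-fold. Gata6 had 4.19, 4.26 and 4.19 CPM in the EV untreated, 4.28 and 4.69 CPM in the EV auxin and 17.9, 18.4 and 17.9 CPM in the FL auxin libraries. The 3 FL auxin values lay within 1 CPM of one another and far above both EV groups, which did not differ by the test (EV auxin over EV untreated 0.10, edgeR adjusted p = 0.635). Gata6 changed by 2.10 ± 0.083 (SE) on the log2 scale, with an edgeR adjusted p = 4.78e-10. Its partner Gata4 rose 3.47-fold. Gata4 had 5.49, 4.36 and 5.51 CPM in the EV untreated, 7.81 and 8.47 CPM in the EV auxin and 17.9, 17.6 and 18.4 CPM in the FL auxin libraries. Here the EV auxin libraries already lay above every EV untreated library, and FL auxin lay above both. Over EV untreated, Gata4 in FL auxin came to 1.79 ± 0.091 (SE) in log2 units, at an edgeR adjusted p = 7.50e-09. Sox17 had 1.63, 1.08 and 1.102 CPM in the EV untreated, 1.82 and 1.95 CPM in the EV auxin and 5.15, 4.48 and 4.69 CPM in the FL auxin libraries. Sox17, an endoderm factor of the SRY-box family, was highest in every FL auxin library. Sox17 changed by 1.89 ± 0.17 (SE) on the log2 scale, with an edgeR adjusted p = 8.92e-07. In TPM, which allow levels of different genes to be compared, Gata6 reached 10.1 to 10.2 TPM and Gata4 16.3 to 17.4 TPM in FL auxin cells.

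Genes of uptake at the endoderm surface rose with them. Dab2 encodes a clathrin adaptor and Cubn its cargo receptor cubilin. Dab2 had 10.4, 14.7 and 13.99 CPM in the EV untreated, 11.01 and 11.5 CPM in the EV auxin and 41.5, 48.98 and 50.1 CPM in the FL auxin libraries. Cubn had 15.1, 19.8 and 20.5 CPM in the EV untreated, 13.3 and 16.1 CPM in the EV auxin and 64.4, 76.8 and 77.2 CPM in the FL auxin libraries. The EV auxin libraries lay within the EV untreated range, except 1 Cubn value below it, and all FL auxin libraries stood far above all EV libraries. Over EV untreated, Dab2 in FL auxin came to 1.85 ± 0.11 (SE) in log2 units, at an edgeR adjusted p = 2.72e-08. Cubn changed by 1.99 ± 0.12 (SE) on the log2 scale, with an edgeR adjusted p = 2.78e-08. Rhox5, a homeobox gene of the X chromosome expressed in extraembryonic tissue, rose less (log2 fold change 0.50, edgeR adjusted p = 4.28e-06). The classical secreted products Ttr and Afp, named here after their values were seen, were called higher but stayed scarce: Ttr had 5, 1 and 0 counts in EV untreated and 17, 9 and 14 counts in FL auxin libraries, and Afp 5, 7 and 3 counts and 16, 8 and 9 counts.

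Among the basement membrane genes, 2 chains of collagen IV and a laminin chain had the smallest adjusted p. Col4a1 had 104, 98.97 and 103 CPM in the EV untreated, 91.6 and 97.7 CPM in the EV auxin and 204, 173 and 206 CPM in the FL auxin libraries. Col4a2 had 51.3, 44.8 and 51.2 CPM in the EV untreated, 42.8 and 47.2 CPM in the EV auxin and 119.7, 90.7 and 113 CPM in the FL auxin libraries. For both collagen IV chain genes the EV auxin libraries lay within or slightly below the EV untreated range, and every FL auxin library lay above all EV libraries. Over EV untreated, Col4a1 in FL auxin came to 0.93 ± 0.065 (SE) in log2 units, at an edgeR adjusted p = 9.97e-08. Col4a2 changed by 1.14 ± 0.091 (SE) on the log2 scale, with an edgeR adjusted p = 3.71e-07. Lama1 had 115, 107 and 107 CPM in the EV untreated, 84.4 and 88.8 CPM in the EV auxin and 206, 191 and 192 CPM in the FL auxin libraries. Lama1, the laminin alpha chain of early basement membranes, was lowest in EV auxin and highest in FL auxin libraries. Over EV untreated, Lama1 in FL auxin came to 0.84 ± 0.065 (SE) in log2 units, at an edgeR adjusted p = 2.63e-07. The summed level of the list was 2319 to 2405 TPM in EV untreated, 2386 to 2491 TPM in EV auxin and 2829 to 2975 TPM in FL auxin libraries.

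**Figure D2:**
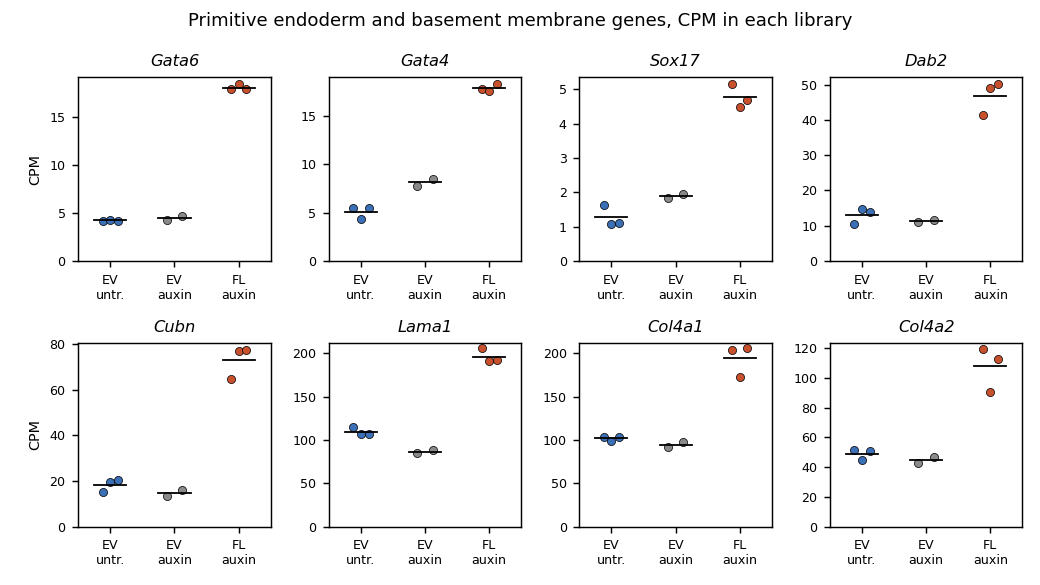
CPM (vertical axes, starting at 0) of 8 endoderm and basement membrane genes in the 3 EV untreated, 2 EV auxin and 3 FL auxin libraries. Points are libraries and black lines group means. In each panel every FL auxin library lies above every EV library.

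The exceptions among the primitive endoderm regulators were Hnf4a, the lower member (log2 fold change -0.27), and Fgfr2 (0.021), which was not called; these and the further members below were named after their values were seen. The call of Hnf4a was lost without EV untreated replicate 1. Pdgfra (1.70), Sox7 (1.53), Foxa2 (1.54), Cited1 (1.45) and Foxq1 (1.29) rose. Relative to the EV untreated mean, the average log2 CPM of the regulators lay 0.951 to 1.07 higher in the FL auxin libraries, 0.0975 and 0.148 higher in the EV auxin libraries and 0.621 to 0.718 higher in the H373R auxin libraries.

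Markers of fibroblasts, which can be present as feeder cells, moved the same way, and their part in these results was not tested. Of the 19 markers 13 could be tested and 9 were higher (10 without EV untreated replicate 1); the summed level was 265 to 297 TPM in EV untreated, 279 to 297 TPM in EV auxin and 375 to 406 TPM in FL auxin libraries. Tagln changed by 1.21 ± 0.08 (SE) on the log2 scale, with an edgeR adjusted p = 6.21e-08. Over EV untreated, Acta2 in FL auxin came to 0.89 ± 0.091 (SE) in log2 units, at an edgeR adjusted p = 3.89e-06. Vim changed by 0.53 ± 0.056 (SE) on the log2 scale, with an edgeR adjusted p = 5.00e-06. These 3 genes encode cytoskeletal proteins that many cells make. Col1a1 and Col3a1, fibrillar collagens of fibroblasts, were called higher too: Col1a1 was at 14.0 to 18.3 TPM in EV untreated, 15.3 and 17.7 TPM in EV auxin and 19.6 to 25.7 TPM in FL auxin libraries, and Col3a1 at 0.372 to 0.496, 0.329 and 0.475, and 0.894 to 1.44 TPM. Of the markers not tested, Dcn, Lum, Postn and Prrx1 had 0 to 4 counts in every one of the 6 libraries.

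Several members of the FGF pathway were higher. Of 24 FGF-ERK genes 11 were higher and 5 lower (median 0.40; 11 and 5 without EV untreated replicate 1). Klb, the co-receptor beta-Klotho through which endocrine FGFs act, rose 4.47-fold. Klb had 1.33, 1.42 and 1.28 CPM in the EV untreated, 1.37 and 1.16 CPM in the EV auxin and 6.11, 5.85 and 6.02 CPM in the FL auxin libraries. It was not called after auxin alone (edgeR adjusted p = 0.821) and was high in all FL auxin libraries. Over EV untreated, Klb in FL auxin came to 2.16 ± 0.13 (SE) in log2 units, at an edgeR adjusted p = 2.78e-08. Fgf15, one of the endocrine ligands, had 1.08 in FL auxin and 0.53 in EV auxin as log2 fold change over EV untreated, both called (edgeR adjusted p = 1.33e-08 and 2.97e-05). Dusp6 had 30.5, 29.86 and 31.3 CPM in the EV untreated, 24.98 and 24.6 CPM in the EV auxin and 52.4, 52.9 and 48.4 CPM in the FL auxin libraries. Dusp6, a phosphatase that ERK signalling induces and that dampens ERK, was below the EV untreated range after auxin alone and above it in FL auxin cells. Dusp6 changed by 0.74 ± 0.058 (SE) on the log2 scale, with an edgeR adjusted p = 2.67e-07. Spry4, another feedback inhibitor, rose (log2 fold change 0.43). The 5 lower members were Egr1 (-0.50), Fgfr3 (-0.31), Etv5 (-0.22), Fgfr1 (-0.19) and Spred2 (-0.16), named after their values were seen; with FL auxin replicate 2 left out, 3 members were called lower.

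Nodal and BMP genes were called in 1 direction. Of 22 tested, 12 were higher and 0 lower (median 0.17), and 13 and 1 without EV untreated replicate 1. Lefty2 had 58.8, 57.6 and 57.3 CPM in the EV untreated, 116 and 112 CPM in the EV auxin and 102, 103 and 91.3 CPM in the FL auxin libraries. Lefty2 and its neighbour Lefty1, secreted Nodal inhibitors that Nodal itself induces, were high in both auxin-treated groups. Over EV untreated, Lefty2 in FL auxin came to 0.77 ± 0.053 (SE) in log2 units, at an edgeR adjusted p = 8.40e-08. Lefty1 changed by 0.83 ± 0.087 (SE) on the log2 scale, with an edgeR adjusted p = 4.68e-06. Their log2 fold changes after auxin alone were 0.98 and 1.13, and FL auxin was below EV auxin for both (edgeR adjusted p = 0.0162 and 0.0315). Pcsk6, a protease that cleaves the Nodal precursor, rose in FL auxin cells (log2 fold change 0.58) and was not called after auxin alone (-0.092, edgeR adjusted p = 0.312).

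Of 18 Wnt feedback and target genes 8 were higher and 3 lower (median 0.077; 8 and 4 without EV untreated replicate 1; 8 and 6 with trends in GC content and gene length removed). Cdx1 had 7.22, 5.97 and 5.77 CPM in the EV untreated, 13.3 and 14.2 CPM in the EV auxin and 22.6, 20.4 and 19.02 CPM in the FL auxin libraries. Cdx1, a homeobox factor of posterior identity and a Wnt target, rose 3.25-fold, with the EV auxin libraries between EV untreated and FL auxin. Its mean level was 20.7 CPM in FL auxin and 20.1 CPM in H373R auxin libraries. Over EV untreated, Cdx1 in FL auxin came to 1.70 ± 0.10 (SE) in log2 units, at an edgeR adjusted p = 1.76e-08. Lef1 had 13.8, 13.2 and 14.2 CPM in the EV untreated, 10.04 and 10.4 CPM in the EV auxin and 5.82, 6.76 and 6.32 CPM in the FL auxin libraries. Lef1, a DNA-binding partner of beta-catenin, was lower after auxin alone (edgeR adjusted p = 0.00601) and lower still in every FL auxin library. In the H373R auxin libraries it had 5.464, 6.273 and 6.885 CPM, near the FL auxin values. Lef1 changed by -1.13 ± 0.10 (SE) on the log2 scale, with an edgeR adjusted p = 6.68e-07. The third member, the Wnt antagonist Nkd2, fell as well and is described with the genes that had also fallen after auxin alone.

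Of 17 mesendoderm and primitive streak genes 6 were higher and 0 lower (median 0.43; 7 and 0 without EV untreated replicate 1). That is 35.3% called, near the 36.9% of all genes, of which 17.7% were higher. Sox17 and Foxa2 are among the higher members and were also counted with the primitive endoderm regulators. T, the streak factor brachyury, is present at low counts. It had 19, 9 and 28 counts in EV untreated, 21 and 23 counts in EV auxin and 78, 32 and 71 counts in FL auxin libraries (log2 fold change 2.21 ± 0.25, SE, edgeR adjusted p = 8.80e-06). Foxa2, needed in definitive and visceral endoderm, had a log2 fold change of 1.54 (edgeR adjusted p = 0.000993). Of 16 trophoblast factors and simple keratins 9 were higher and 1, Tfap2c, lower (log2 fold change -0.46; 11 and 1 without EV untreated replicate 1), with the keratins Krt8 (0.81) and Krt18 (0.63) among the higher. Of 16 neural and ectoderm markers 6 were higher and 5 lower (7 and 5 without EV untreated replicate 1). Sox1, a neural plate factor, rose 2.11-fold. Sox1 had 10.6, 11.8 and 10.2 CPM in the EV untreated, 9.52 and 8.800 CPM in the EV auxin and 23.4, 21.9 and 23.00 CPM in the FL auxin libraries. The FL auxin libraries stood above both EV groups, and Map2, a neuronal microtubule protein, was lower (log2 fold change -0.95).

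Of the 39 Hox genes 14 had enough counts, and 10 of these were higher and 0 lower in FL auxin cells (median 1.12; 11 and 0 without EV untreated replicate 1). Hox genes pattern the body axis and are silenced by Polycomb in stem cells. Hoxc13 had a log2 fold change of 0.88 in FL auxin and 0.59 in EV auxin cells (edgeR adjusted p = 0.000147 and 0.0119). Hoxa11 had 3, 2 and 1 counts in EV untreated, 1 and 2 counts in EV auxin and 9, 8 and 10 counts in FL auxin libraries, a ratio of 6.51 per scaled library between the summed counts (95% interval by the exact binomial 2.63 to 19.3, counting error only). Other members are scarce too, and 5 were called higher where every library had to hold at least 10 counts, and 5 where all libraries were thinned to the smallest total.

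The stem cell network itself moved in both directions. Of 30 naive and core pluripotency genes 9 were higher and 11 lower (median -0.097; 8 and 13 without EV untreated replicate 1). Nanog had 648, 773 and 753 CPM in the EV untreated, 693 and 667 CPM in the EV auxin and 529.7, 541 and 534 CPM in the FL auxin libraries. Nanog was lower in every FL auxin library than in any EV library, whereas EV auxin overlapped EV untreated. The H373R auxin libraries, at 566.9, 589.3 and 582.5 CPM, lay below every EV library as well. Over EV untreated, Nanog in FL auxin came to -0.44 ± 0.057 (SE) in log2 units, at an edgeR adjusted p = 3.06e-05. Tet2 had 110.0, 131 and 129.7 CPM in the EV untreated, 92.2 and 96.2 CPM in the EV auxin and 64.5, 77.99 and 73.2 CPM in the FL auxin libraries. Tet2, which oxidises methylated cytosine, fell after auxin alone (edgeR adjusted p = 0.00437) and lay lower again in FL auxin libraries. It was low in the H373R auxin libraries as well, at 60.4, 54.8 and 53.6 CPM. Tet2 changed by -0.78 ± 0.078 (SE) on the log2 scale, with an edgeR adjusted p = 2.96e-06. Pou5f1 (0.056) and Sox2 (-0.068) were not called. Of 22 formative and primed genes 11 were higher and 5 lower (median 0.24; 11 and 6 without EV untreated replicate 1; 3 lower without FL auxin replicate 1). Dnmt3a, a de novo DNA methyltransferase, rose by 0.50 on the log2 scale in FL auxin and by 0.16 in EV auxin cells.

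**Figure D3:**
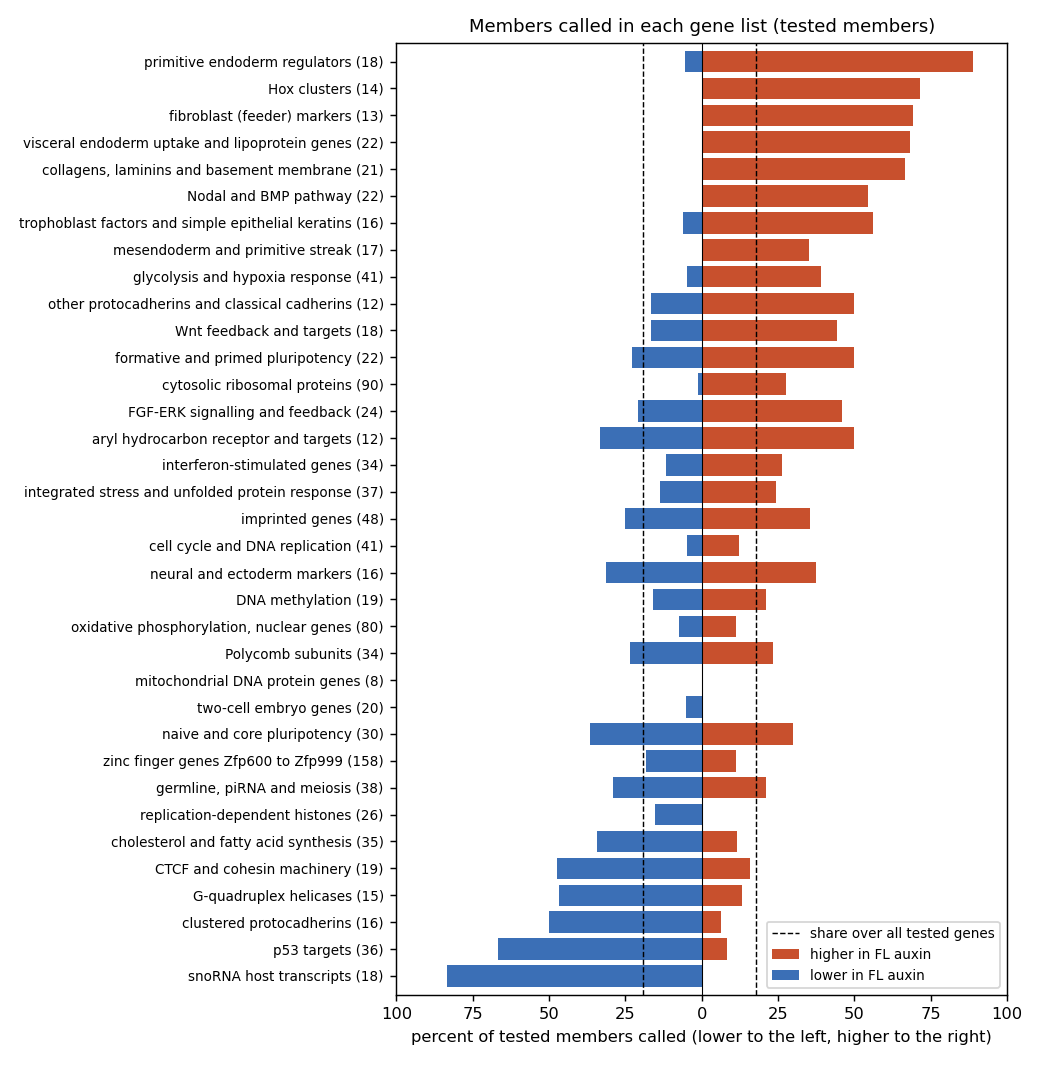
Share of the tested members of each of 35 gene lists that was called higher (orange, to the right) or lower (blue, to the left) in FL auxin against EV untreated libraries. Dashed lines mark the 17.7% higher and 19.2% lower among all tested genes. The primitive endoderm regulators reach 16 of 18 higher and the snoRNA host transcripts 15 of 18 lower.

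Several large falls were in genes that were also lower in EV auxin cells. Among genes with an average log2 CPM of 1 or more and no overlap between the groups, the 10 largest falls were Nkd2, Abhd14b, Mob3b, Cc2d2a, Scn3a, Dennd6b, Sh3bp5, Ryr2, Cgref1 and Prss41, with log2 fold changes from -2.44 to -1.85; every one was also called lower in EV auxin against EV untreated libraries, a comparison that shares the EV untreated libraries. Nkd2 had 8.59, 9.202 and 9.14 CPM in the EV untreated, 0.456 and 0.291 CPM in the EV auxin and 1.19, 1.898 and 1.94 CPM in the FL auxin libraries. Nkd2 binds Dishevelled and antagonises Wnt signalling; its FL auxin libraries lay above the EV auxin libraries (edgeR adjusted p = 0.00037) and far below the EV untreated ones. Over EV untreated, Nkd2 in FL auxin came to -2.44 ± 0.16 (SE) in log2 units, at an edgeR adjusted p = 4.86e-08. Mob3b had 8.65, 8.52 and 9.55 CPM in the EV untreated, 0.855 and 0.623 CPM in the EV auxin and 1.53, 1.97 and 1.84 CPM in the FL auxin libraries. Cc2d2a had 32.3, 32.9 and 35.3 CPM in the EV untreated, 2.395 and 3.404 CPM in the EV auxin and 6.87, 7.21 and 6.32 CPM in the FL auxin libraries. Mob3b, of the MOB kinase activator family, and Cc2d2a, a protein of the ciliary transition zone, had the same order of groups without overlap. Mob3b changed by -2.34 ± 0.13 (SE) on the log2 scale, with an edgeR adjusted p = 1.40e-08. Over EV untreated, Cc2d2a in FL auxin came to -2.31 ± 0.094 (SE) in log2 units, at an edgeR adjusted p = 5.66e-10.

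Prss41, a serine protease gene, was nearly absent after auxin alone. It had 166, 129 and 172 counts in EV untreated, 3 and 2 counts in EV auxin and 33, 20 and 37 counts in FL auxin libraries. Prss41 changed by -1.85 ± 0.15 (SE) on the log2 scale, with an edgeR adjusted p = 3.41e-07. The FL auxin level was 0.278 of the untreated level in the fit. Scn3a, a voltage-gated sodium channel, Dennd6b, an exchange factor for Rab proteins, and Sh3bp5, which binds Rab11, had log2 fold changes of -2.20, -2.11 and -2.11 in FL auxin and -3.93, -3.55 and -3.35 in EV auxin against EV untreated cells, and all 3 were higher in FL auxin than in EV auxin (edgeR adjusted p = 0.00666, 0.0116 and 0.00765).

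Other genes showed no detectable difference between FL auxin and EV auxin while both differed from EV untreated. At an average log2 CPM of 1 or more, the 5 with the largest change on the lower side were Abhd14b, Ryr2, Cgref1, Cep135 and Samd12. Abhd14b had 5.69, 5.68 and 5.11 CPM in the EV untreated, 0.684 and 0.706 CPM in the EV auxin and 0.954, 1.52 and 0.867 CPM in the FL auxin libraries. Abhd14b, an alpha/beta hydrolase, was low in all auxin-treated libraries (FL over EV auxin 0.61, edgeR adjusted p = 0.155). Over EV untreated, Abhd14b in FL auxin came to -2.36 ± 0.17 (SE) in log2 units, at an edgeR adjusted p = 1.11e-07. Ryr2 had 4.06, 3.33 and 3.86 CPM in the EV untreated, 1.198 and 1.08 CPM in the EV auxin and 0.859, 1.22 and 0.969 CPM in the FL auxin libraries. Cep135 had 22.1, 23.6 and 25.5 CPM in the EV untreated, 8.84 and 9.46 CPM in the EV auxin and 7.68, 9.19 and 10.2 CPM in the FL auxin libraries. The ranges of FL auxin and EV auxin overlapped for Ryr2, a calcium release channel, and for Cep135, a centriole protein. Ryr2 changed by -1.93 ± 0.17 (SE) on the log2 scale, with an edgeR adjusted p = 9.73e-07. Over EV untreated, Cep135 in FL auxin came to -1.40 ± 0.10 (SE) in log2 units, at an edgeR adjusted p = 8.75e-08. Cgref1 and Samd12 had -1.85 and -1.27. A p above the threshold does not show that FL CTCF left these genes where auxin alone had them.

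On the higher side the corresponding genes were Serpinb9, Ecm1, Islr2, Radil and Gys1. Serpinb9 had 1.17, 1.57 and 1.800 CPM in the EV untreated, 5.65 and 6.35 CPM in the EV auxin and 5.49, 5.62 and 5.41 CPM in the FL auxin libraries. Serpinb9, an inhibitor of granzyme B, lay in FL auxin cells just below the EV auxin libraries and above all EV untreated ones, and Ecm1 encodes an extracellular matrix protein. Serpinb9 changed by 1.87 ± 0.15 (SE) on the log2 scale, with an edgeR adjusted p = 3.03e-07. Over EV untreated, Ecm1 in FL auxin came to 1.54 ± 0.13 (SE) in log2 units, at an edgeR adjusted p = 4.80e-07. Gys1 had 110.3, 96.6 and 99.8 CPM in the EV untreated, 238 and 252 CPM in the EV auxin and 291, 267 and 269.9 CPM in the FL auxin libraries. Gys1, glycogen synthase of muscle and most tissues, rose 2.70-fold. Gys1 changed by 1.43 ± 0.056 (SE) on the log2 scale, with an edgeR adjusted p = 4.78e-10. Over EV untreated, Islr2 in FL auxin came to 1.52 ± 0.08 (SE) in log2 units, at an edgeR adjusted p = 1.21e-08. Radil changed by 1.44 ± 0.11 (SE) on the log2 scale, with an edgeR adjusted p = 2.73e-07. Islr2 is a leucine-rich repeat protein of neurons, and Radil an effector of the small GTPase Rap in cell adhesion. Dio3, an imprinted gene whose enzyme inactivates thyroid hormone, was higher than in EV untreated cells at part of the rise that auxin alone gave. Dio3 had 1.06, 0.832 and 1.18 CPM in the EV untreated, 5.08 and 5.98 CPM in the EV auxin and 4.15, 3.57 and 3.52 CPM in the FL auxin libraries. Over EV untreated, Dio3 in FL auxin came to 1.85 ± 0.16 (SE) in log2 units, at an edgeR adjusted p = 1.01e-06. FL auxin was below EV auxin (edgeR adjusted p = 0.00829).

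**Figure D4:**
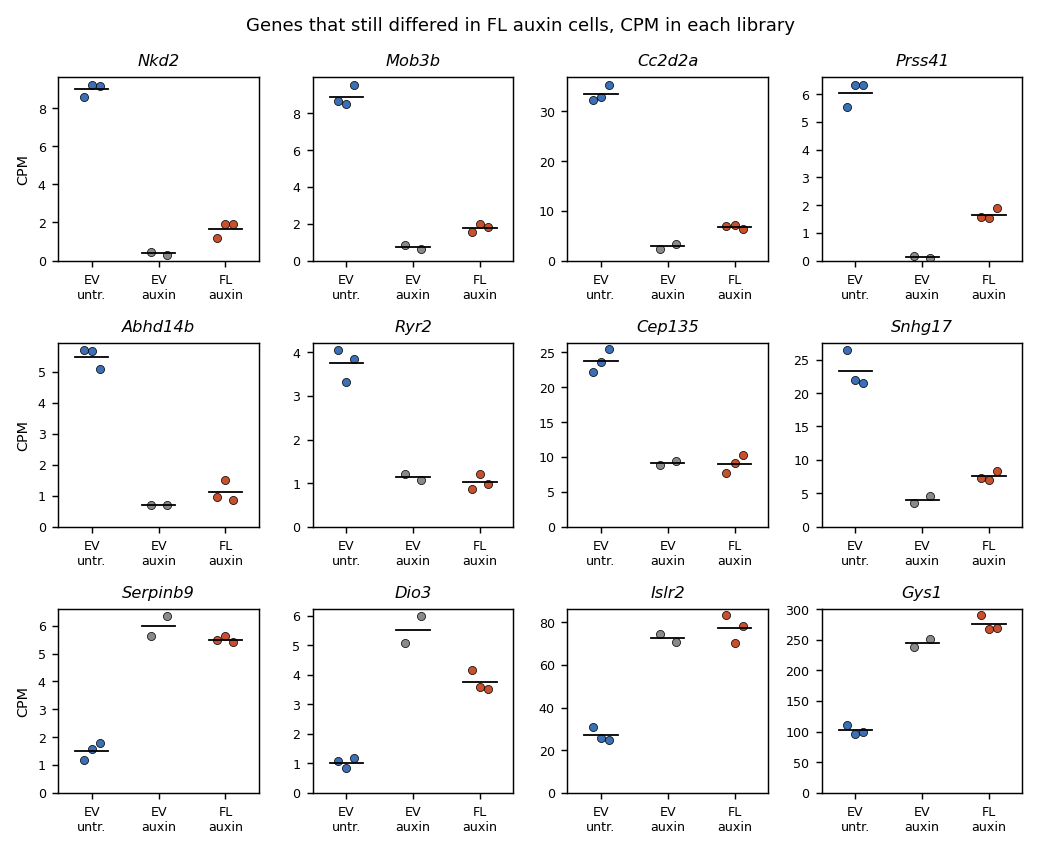
CPM (vertical axes, starting at 0) of 12 genes that differed between FL auxin and EV untreated libraries and between EV auxin and EV untreated libraries. Points are libraries and black lines group means. The first 8 panels show genes lower in both auxin-treated groups and the last 4 genes higher in both.

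The promoters of these genes were searched for the core of the CTCF motif (CCA, AG and GGC in this order, with 2 bases of any kind between CCA and AG and between AG and GGC, on either strand), in the 250 bases before the RefSeq transcription start (build GRCm38.p6). Of 31 named genes, those of the largest changes and of the 2 comparisons with EV auxin, 24 had a promoter in the table and 3 held the motif: Abhd14b, Dennd6b and Radil, the first 2 lower and the third higher in FL auxin cells. Their promoters are printed to show where the motif (capitals) lies; each reads along the gene, toward the start, with the start just after the last base. Abhd14b lies on the plus strand at chr9:106448390-106448639, with the motif along the gene and its first base 55 bases before the start.
Abhd14b: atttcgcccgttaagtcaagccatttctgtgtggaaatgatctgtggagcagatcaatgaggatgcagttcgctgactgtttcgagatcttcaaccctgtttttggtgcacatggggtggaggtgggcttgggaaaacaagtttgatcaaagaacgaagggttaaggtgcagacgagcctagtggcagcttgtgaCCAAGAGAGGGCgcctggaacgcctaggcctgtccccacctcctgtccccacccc
Dennd6b lies on the minus strand at chr15:89196475-89196724, with the motif on the opposite strand to the gene, so that its reverse complement is in capitals, starting 180 bases before the start.
Dennd6b: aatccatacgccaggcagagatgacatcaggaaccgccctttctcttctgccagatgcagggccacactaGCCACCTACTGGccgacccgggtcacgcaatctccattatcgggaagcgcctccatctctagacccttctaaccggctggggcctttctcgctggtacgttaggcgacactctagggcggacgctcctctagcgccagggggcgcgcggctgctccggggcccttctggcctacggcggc
Radil lies on the minus strand at chr5:142551099-142551348, with the motif along the gene, starting 181 bases before the start.
Radil: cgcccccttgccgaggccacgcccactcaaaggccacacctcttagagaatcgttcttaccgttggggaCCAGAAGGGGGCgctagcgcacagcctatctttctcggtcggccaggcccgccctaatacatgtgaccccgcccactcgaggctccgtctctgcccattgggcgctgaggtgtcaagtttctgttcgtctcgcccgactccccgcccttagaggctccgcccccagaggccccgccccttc
Over all genes the motif was about equally common among the changed and the unchanged. It was in the promoters of 2.9% of the 11769 tested genes with an entry, of 2.4% of those called higher, 3.11% of those called lower and 2.98% of those not called. A G-quadruplex motif (4 runs of at least 3 G with loops of 1 to 7 bases, either strand), searched because the series concerns CTCF and G-quadruplexes, was in 28.8% of all, 33.5% of the higher, 28.5% of the lower and 27.5% of the uncalled genes; the median GC content of the promoters was 60.8% among the higher and 59.6% among the lower and the uncalled genes. For the CTCF motif only exact matches of the core were counted, so sites that depart from it by a base were not. A match of letters is a description, and CTCF binding was not measured here.

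Of the 10 largest rises under the same limits on level and overlap, Car3, Foxi3 and Srgn are not yet described. Car3 had 1.76, 1.81 and 1.91 CPM in the EV untreated, 4.73 and 4.61 CPM in the EV auxin and 9.73, 6.76 and 8.11 CPM in the FL auxin libraries. Car3, a carbonic anhydrase, was raised after auxin alone and higher again in FL auxin libraries. The H373R auxin libraries had 8.475, 7.735 and 9.308 CPM, near the FL auxin values. Car3 changed by 2.19 ± 0.15 (SE) on the log2 scale, with an edgeR adjusted p = 6.53e-08. Srgn had 4.93, 4.99 and 6.57 CPM in the EV untreated, 4.28 and 6.18 CPM in the EV auxin and 19.6, 21.4 and 21.2 CPM in the FL auxin libraries. Srgn, the core protein of a secretory granule proteoglycan, was not called after auxin alone (-0.048, edgeR adjusted p = 0.874). Over EV untreated, Srgn in FL auxin came to 1.91 ± 0.12 (SE) in log2 units, at an edgeR adjusted p = 4.98e-08. Foxi3, a forkhead factor, had log2 fold changes of 1.98 in FL auxin and 1.17 in EV auxin cells. Its mean level was 3.85 CPM in FL auxin and 3.91 CPM in H373R auxin libraries.

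On the lower side, at the same minimum level, the 5 genes furthest beyond both EV groups were Ddr2, Zfas1, Ccdc73, Fam13b and Mcmdc2. Ddr2 had 14.4, 14.8 and 15.7 CPM in the EV untreated, 16.1 and 15.5 CPM in the EV auxin and 5.68, 5.85 and 6.37 CPM in the FL auxin libraries. Ddr2, a receptor tyrosine kinase for fibrillar collagen, fell to 0.399 of its untreated level in FL auxin cells while EV auxin and EV untreated overlapped. Ddr2 changed by -1.33 ± 0.085 (SE) on the log2 scale, with an edgeR adjusted p = 5.15e-08. Fam13b had 9.45, 8.71 and 9.88 CPM in the EV untreated, 9.12 and 7.47 CPM in the EV auxin and 3.39, 3.42 and 3.72 CPM in the FL auxin libraries. The FL auxin libraries lay below all EV libraries for Fam13b. Over EV untreated, Fam13b in FL auxin came to -1.41 ± 0.12 (SE) in log2 units, at an edgeR adjusted p = 4.52e-07. Ccdc73 and Mcmdc2, the latter a meiotic relative of the MCM helicases, had log2 fold changes of -1.30 and -1.27 against EV untreated and -1.43 and -1.18 against EV auxin cells. All 5 genes were also low in H373R auxin libraries. There the means of Ddr2, Zfas1, Ccdc73, Fam13b and Mcmdc2 were 7.005, 14.25, 2.048, 2.913 and 1.806 CPM. In FL auxin libraries the means were 5.966, 13.51, 1.539, 3.509 and 1.34 CPM in the same order.

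Zfas1 belongs to a group that fell almost throughout. Of 18 host transcripts of small nucleolar RNAs (snoRNAs, guides for chemical modification of ribosomal RNA that are cut from introns of these hosts), 15 were lower and 0 higher in FL auxin cells, with a median log2 fold change of -0.72, where 19.2% of all genes were lower; it was 16 and 0 without EV untreated replicate 1. Zfas1 had 39.6, 32.01 and 31.8 CPM in the EV untreated, 33.99 and 32.9 CPM in the EV auxin and 14.1, 13.1 and 13.3 CPM in the FL auxin libraries. Zfas1 was not called after auxin alone (edgeR adjusted p = 0.79) and was low in all FL auxin libraries. Zfas1 changed by -1.35 ± 0.10 (SE) on the log2 scale, with an edgeR adjusted p = 1.64e-07. Snhg1 had 64.7, 67.4 and 73.1 CPM in the EV untreated, 59.1 and 57.1 CPM in the EV auxin and 34.3, 35.8 and 37.7 CPM in the FL auxin libraries. Over EV untreated, Snhg1 in FL auxin came to -0.93 ± 0.06 (SE) in log2 units, at an edgeR adjusted p = 5.46e-08. Snhg1 thus lay lowest with FL CTCF, with EV auxin between the groups. Snhg17 had 26.4, 21.98 and 21.5 CPM in the EV untreated, 3.48 and 4.53 CPM in the EV auxin and 7.301, 6.99 and 8.26 CPM in the FL auxin libraries. In Snhg17 auxin alone gave the larger fall and FL auxin lay between the EV groups. Snhg17 changed by -1.63 ± 0.11 (SE) on the log2 scale, with an edgeR adjusted p = 5.46e-08. The 3 members not called were Snhg3 (-0.23), Snhg8 (-0.036) and Snhg18 (0.045), named after their values were seen. The average log2 CPM of the hosts relative to the EV untreated mean was -0.751 to -0.697 in FL auxin, -0.389 and -0.379 in EV auxin and -0.674 to -0.523 in H373R auxin libraries. With trends in GC content and length removed, 16 hosts could be tested and 11 were lower and 0 higher, or 11 and 2 with EV untreated replicate 1 left out as well.

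Long non-coding RNAs as a class were lower too. Of 907 tested 216 were lower and 44 higher (median -0.29), against 2866 lower and 2769 higher of 14244 protein-coding genes (median 0.0065); without EV untreated replicate 1 the class had 229 lower and 52 higher. The median difference from the EV untreated mean was -0.272, -0.279 and -0.237 in the 3 FL auxin libraries -0.0789 and -0.0627 in the 2 EV auxin libraries, and -0.23, -0.223 and -0.179 in the H373R auxin libraries. Most of the class was scarce: 698 of the 907 had an average log2 CPM of at most 1.35 (median -0.32; 18.9% lower, 3.72% higher). Of the 169 from 1.35 to 4.09, 40.2% were lower and 8.88% higher (median -0.238). Of the 31 from 4.09 to 5.93, 41.9% were lower and 3.23% higher (median -0.194). Among protein-coding genes at these 2 levels 19.7% and 21.3% were lower. The 9 above 5.93 had a median of 0.055. The share of counts in the class did not fall with it, at 0.612 to 0.631% in EV untreated and 0.584 to 0.682% in FL auxin libraries. Part of that share was Gm42418, a locus that overlaps ribosomal RNA sequence, at 749 to 844 CPM in EV untreated and 1138 to 1926 CPM in FL auxin libraries (log2 fold change 0.97, edgeR adjusted p = 3.37e-05); it is named after its values were seen, and its part in the other values was not tested. Gas5, a snoRNA host among the abundant members, fell by 0.60 on the log2 scale. Whether counting used strand is not given in the sources used here, so reads of antisense transcripts may belong to the genes they overlap.

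Targets of p53 were mostly lower. Of 36 tested, 24 were lower and 3 higher (median -0.29; 23 and 5 without EV untreated replicate 1). Their average log2 CPM relative to the EV untreated mean was -0.257 to -0.189 in FL auxin and -0.393 and -0.357 in EV auxin libraries. Zmat3 had 136, 139 and 138 CPM in the EV untreated, 85.8 and 97.01 CPM in the EV auxin and 84.4, 90.5 and 88.98 CPM in the FL auxin libraries. Zmat3, an RNA-binding protein, and Ercc5, a DNA repair nuclease, were not called between FL auxin and EV auxin cells (FL over EV auxin -0.059 and -0.05, edgeR adjusted p = 0.547 and 0.57). Over EV untreated, Zmat3 in FL auxin came to -0.65 ± 0.056 (SE) in log2 units, at an edgeR adjusted p = 8.09e-07. Btg2 had 88.2, 91.97 and 91.8 CPM in the EV untreated, 51.5 and 45.3 CPM in the EV auxin and 61.03, 57.3 and 62.7 CPM in the FL auxin libraries. Btg2, an antiproliferative gene, lay between the EV groups. Btg2 changed by -0.58 ± 0.058 (SE) on the log2 scale, with an edgeR adjusted p = 2.61e-06. The cell cycle inhibitor Cdkn1a had -0.21 in FL auxin and -0.79 in EV auxin cells against EV untreated cells, and the higher members were Sesn1 (0.45), Pmaip1 (0.41) and Ddb2 (0.32); these 4 were named after their values were seen.

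Of the 57 clustered protocadherins, cell surface genes whose promoters are chosen with the help of CTCF, 16 had enough counts, and 8 were lower and 1 higher in FL auxin cells (median -0.49; 7 and 1 without EV untreated replicate 1). The summed level of the 57 was 23.36 to 24.37 TPM in EV untreated, 13.36 to 15.13 TPM in EV auxin and 23.28 to 24.55 TPM in FL auxin libraries. The average log2 CPM of tested members relative to the EV untreated mean was -0.725 to -0.604 in FL auxin libraries. It was -1.88 and -1.84 in EV auxin and -1.62 to -1.47 in H373R auxin libraries. Pcdhga11 had 3.995, 4.16 and 4.08 CPM in the EV untreated, 0.171 and 0.415 CPM in the EV auxin and 2.58, 2.66 and 2.81 CPM in the FL auxin libraries. The FL auxin libraries lay between the other groups, nearer to EV untreated. Over EV untreated, Pcdhga11 in FL auxin came to -0.60 ± 0.13 (SE) in log2 units, at an edgeR adjusted p = 0.00237. That call was lost with limma on log2(TPM + 0.1), at an adjusted p = 0.0817. Pcdhgc3 was the member called higher (0.69). Pcdhga1 had 22, 14 and 42 counts in EV untreated, 2 and 2 counts in EV auxin and 5, 2 and 6 counts in FL auxin libraries. Isoforms of a cluster share exons, so reads may be split between members, and the counts are low: 4 members were called lower by DESeq2 2 with all libraries thinned to the smallest total, and 5 without EV untreated replicate 2. Of 12 other protocadherins and classical cadherins 6 were higher and 2 lower, and Pcdh1 rose (0.77).

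The machinery that works with CTCF was lower in part. Of 19 CTCF and cohesin genes 9 were lower and 3 higher (median -0.15; 12 and 3 without EV untreated replicate 1, but 4 lower without EV untreated replicate 2, and 5 without EV untreated replicate 3 or without FL auxin replicate 1). With trends in GC content and length removed, 7 were lower and 3 higher and the median was -0.037. Nipbl had 156, 191 and 192 CPM in the EV untreated, 169.7 and 162 CPM in the EV auxin and 108, 131 and 132 CPM in the FL auxin libraries. Nipbl, which loads cohesin, was lower in every FL auxin library than in any EV library. The same held for the H373R auxin libraries, at 125.1, 112.2 and 108.4 CPM. Nipbl changed by -0.54 ± 0.087 (SE) on the log2 scale, with an edgeR adjusted p = 0.000225. Ctcfl, the germline paralogue of Ctcf, had a log2 fold change of -0.97 (edgeR adjusted p = 0.000243). Pds5a, a cohesin regulator, had -0.31, but 0.0047 (edgeR adjusted p = 0.924) once trends in GC content and length were removed. Across all tested genes the share called lower ran from 25.3% in the fifth of lowest GC content to 9.31% in the fifth of highest, and the share called higher from 7.52% to 28.8%.

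Of 15 G-quadruplex helicases 7 were lower and 2 higher (median -0.12; 9 and 2 without EV untreated replicate 1), among them Wrn (-0.50), the helicase lost in Werner syndrome, Atrx (-0.50), a chromatin remodeller, and Dhx9 (-0.32). Of 34 Polycomb subunits 8 were higher and 8 lower, 47.1% called against 36.9% of all genes. Without FL auxin replicate 3 or without H373R auxin replicate 2, 5 were lower. Jarid2, a cofactor of the H3K27 methyltransferase complex, fell by 0.32 on the log2 scale. Of 19 DNA methylation genes 4 were higher and 3 lower, 36.8% called against 36.9% of all genes; it was 6 and 4 without EV untreated replicate 1, and 7 and 7 with trends in GC content and length removed, where 45.2% of all genes were called. Of 158 zinc finger genes numbered Zfp600 to Zfp999, 29 were lower and 18 higher, 29.7% called and so below the 36.9% of all genes. Without EV untreated replicate 1, where 47.2% of all genes were called, 58 were lower and 23 higher. Without FL auxin replicate 1, 19 were lower. With trends in GC content and length removed, 29 were lower and 30 higher. Of 48 imprinted genes 17 were higher and 12 lower, 60.4% called (18 and 13 without EV untreated replicate 1). Among them were Peg10 (0.64), a retrotransposon-derived gene of the placenta, and Ddc (-0.63), which makes dopamine and serotonin, beside Dio3. Of 38 germline genes 8 were higher and 11 lower, 50% called (8 and 14 without EV untreated replicate 1). Mael of the piRNA pathway rose by 0.67 and Tdrd12 fell by 0.70 on the log2 scale. Of 20 genes of the 2-cell embryo 1 was called, Ddit4l (-0.19, edgeR adjusted p = 0.0449), and that call was lost with DESeq2 and when any library other than EV untreated replicate 1 or FL auxin replicate 1 was left out.

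Lists of growth and metabolism are set against the 36.9% called among all genes. Of 90 cytosolic ribosomal proteins 25 were higher and 1 lower (median 0.15), with 56 higher without EV untreated replicate 1, 12 without EV untreated replicate 3, 11 without FL auxin replicate 2 and 47 without FL auxin replicate 3. Rps3, of the small subunit, had a log2 fold change of 0.28 (edgeR adjusted p = 0.000385). Of 80 nuclear genes of oxidative phosphorylation 9 were higher and 6 lower, against 33 and 6 without EV untreated replicate 1, and Ndufb7 of complex I fell (-0.81). With trends in GC content and length removed, 78 could be tested, and 14 were higher and 13 lower (median 0.0051). The counts were 29 and 11 with EV untreated replicate 1 left out as well. Of 41 genes of glycolysis and the hypoxia response 16 were higher and 2 lower (20 and 3 without that library). Pdk1 had 222, 238 and 235 CPM in the EV untreated, 263 and 252 CPM in the EV auxin and 310.0, 319 and 318 CPM in the FL auxin libraries. Pdk1, a kinase that inhibits pyruvate dehydrogenase, and P4ha1, a collagen prolyl hydroxylase, rose by 0.44 and 0.43 on the log2 scale. Of 35 genes of cholesterol and fatty acid synthesis 12 were lower and 4 higher, with Scd2 (-0.28), a fatty acid desaturase, and Hmgcs1 (-0.29), of sterol synthesis, among the lower. Of 37 genes of the integrated stress and unfolded protein response 9 were higher and 5 lower (12 and 8 without EV untreated replicate 1; 2 lower without EV untreated replicate 3, and 3 without EV untreated replicate 2 or FL auxin replicate 1), and the pseudokinase gene Trib3 rose (0.61). With trends in GC content and length removed, 36 of these genes could be tested, and 10 were higher and 11 lower. Of 41 cell cycle genes 5 were higher and 2 lower (10 and 6 without EV untreated replicate 1). None of 8 mitochondrial DNA genes was called by edgeR, by DESeq2 or by limma on log2(TPM + 1), and 0 of the 8 had an unadjusted edgeR p under 0.05; without EV untreated replicate 1 edgeR called 3 lower (median -0.22 against -0.075), and with trends in GC content and length removed 1 higher. Of 26 replication-dependent histones 4 were lower and 0 higher (7 lower without EV untreated replicate 3).

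Interferon-stimulated genes numbered 9 higher and 4 lower of 34 (11 and 4 without EV untreated replicate 1), 38.2% called and so near the 36.9% of all genes. Gbp2, an interferon-induced GTPase, rose (1.41), and Ifit2, which binds foreign RNA, fell (-1.17). Of 12 genes of the aryl hydrocarbon receptor and its targets, which indole compounds can act on, 6 were higher and 4 lower. Tgm2, transglutaminase 2, rose (0.73, edgeR adjusted p = 3.41e-07), and Aldh3a1, an aldehyde dehydrogenase, fell (-0.69, edgeR adjusted p = 0.000648).

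Chromosomes differed as wholes by small amounts, given as a description with no test. On chromosome 11, 446 of 1337 tested genes were lower and 124 higher (median -0.12), and on chromosome 8, 278 of 867 were lower and 79 higher (median -0.11). On chromosome 7, 370 of 1300 were higher and 120 lower (median 0.11), and on chromosome 15, 161 of 641 were higher and 78 lower (median 0.078). The median difference from the EV untreated mean was -0.104, -0.129 and -0.125 on chromosome 11 and -0.0867, -0.115 and -0.128 on chromosome 8 in the 3 FL auxin libraries. In the EV auxin libraries it was 0.0315 and 0.049 on chromosome 11 and 0.0052 and 0.0275 on chromosome 8. In the H373R auxin libraries it was -0.0833 to -0.0761 on chromosome 11 and -0.0667 to -0.0493 on chromosome 8. Without EV untreated replicate 1 the FL auxin medians were -0.11 and -0.087, and with trends in GC content and length removed -0.15 and -0.12, on chromosomes 11 and 8. On chromosomes 7 and 15 they were 0.15 and 0.10 without EV untreated replicate 1, and 0.080 and 0.051 with those trends removed; the H373R auxin libraries lay at 0.0901 to 0.126 on chromosome 7 and 0.0704 to 0.101 on chromosome 15. Ctcf lies on chromosome 8, as do Col4a1 and Col4a2, which rose. DNA copy number was not measured, and its part in these values was not tested.

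**Figure D5:**
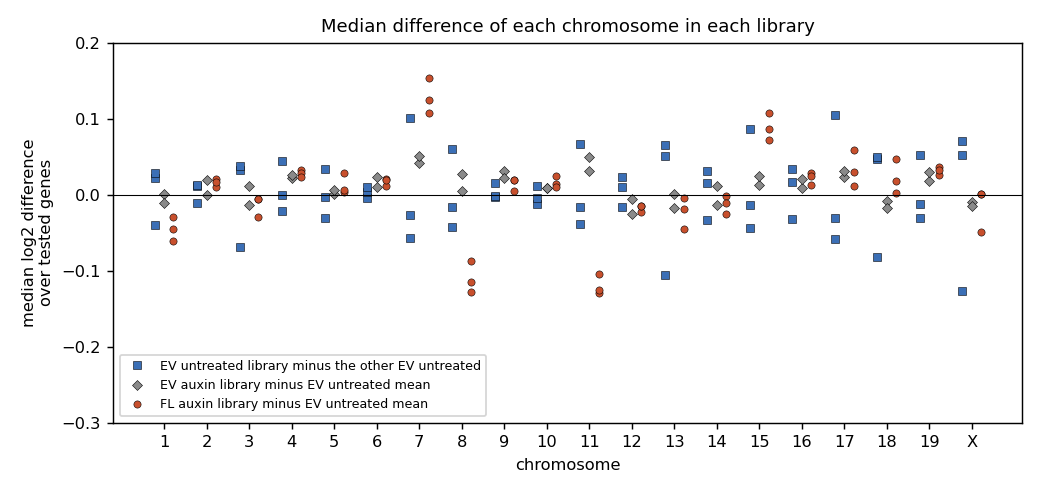
Median log2 difference over the tested genes of each chromosome (horizontal axis). Orange circles are FL auxin and grey diamonds EV auxin libraries against the EV untreated mean, and blue squares each EV untreated library against the other 2. On chromosomes 8 and 11 the 3 FL auxin libraries lie below every other library; on chromosomes 7 and 15 they lie above the EV auxin libraries, while EV untreated replicate 1 is near them.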

How the data were processed

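RNA-seq counts per gene symbol were deposited by the authors as whole numbers, with TPM values beside them that the authors computed. The submitters' processing notes name featureCounts, Subread 2.0.3, DESeq2, mm10 and GRCm38 without their roles; the aligner, annotation and strand setting are not given in the sources used here. Counts of antisense, overlapping or near-identical genes are therefore uncertain.

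The counts of all 11 libraries were filtered with filterByExpr, scaled by TMM and fitted by group with edgeR 4.0.16 in R 4.3.3, so that all groups share 1 estimate of the spread. The quasi-likelihood test of FL auxin against EV untreated was adjusted by Benjamini-Hochberg over all 16420 tested genes, and a gene was called under an adjusted p of 0.05. Log2 CPM used a prior count of 2. DESeq2 1.42.0 and limma 3.58.1 on the deposited TPM served as alternatives; other scalings, filters and thresholds, removal of trends in GC content and length, thinning, a replicate block and leaving out each library were also run. Combining the removal of those trends with a library left out, or with the block, was chosen after seeing the data. Chromosomes, gene types and GC content came from GENCODE M21, which held 98.8% of the tested symbols, and promoters from RefSeq. Figures were drawn with matplotlib 3.10.9 in Python 3.11.15.

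Named genes were Ctcf, the 10 largest changes in each direction without overlap between the groups, the 5 largest in each direction that differed from both EV groups or that differed from EV untreated as after auxin alone, all of these at an average log2 CPM of 1 or more (for the sets of 5 this limit was added in the computation), and from every list the called members lowest in adjusted p, 3 at most. A gene that this rule names is not reported here. Members and lists were chosen with earlier results of these data known. On simulated counts for 16170 genes with 200 changed 2-fold, edgeR found 88.5% of them with 14 false calls.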

Additional observations from a re-analysis of the deposited data

How the results depend on the processing

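The count of called genes was 5299 with DESeq2 and 5391 with limma on log2(TPM + 1), and stayed within 1.5 times of 6052 under every setting but the stricter thresholds. An adjusted p under 0.01 left 3980 genes, 1908 higher and 2072 lower, and a log2 fold change of at least 1 left 664, 307 higher and 357 lower; both ask more of each gene by construction. Limma on log2(TPM + 1) with no TPM filter called 1827 higher; the cause was not tested. Leaving out 1 library at a time gave 4776 to 7706 genes, 2256 to 3820 higher and 2520 to 3886 lower, with the most called without EV untreated replicate 1. Removing trends in GC content and length gave 7332, of which 5199 were among the 6052.

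Of the named genes, 3 values reversed: Ctcf to -0.0193 (edgeR adjusted p = 0.758) without EV untreated replicate 1 (up to 0.0969 with other libraries left out), and Pds5a to 0.00469 with trends in GC content and length removed and to 0.00479 when the block was added to that. The cause was not tested for Ctcf.

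A replicate block gave 6142 genes (2979 higher and 3163 lower), of which 5909 were among the 6052. Deviations of same-numbered libraries correlated at 0.282, 0.119 and 0.0957, and those of different numbers at up to 0.071. The deviations of replicate 1 of both groups followed GC content (r = 0.559 in EV untreated and 0.325 in FL auxin). The part of this trend in the correlations was not tested, so they cannot show whether the numbers pair libraries. The labels do not say that a number marks a shared culture or day.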
